A study of Mus musculus with 4 samples.

Results

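The replication-dependent histone genes were taken as every gene whose symbol begins with Hist1h, Hist2h, Hist3h or Hist4h, which gave 68 of the 23420 genes counted. They comprised 6 genes for the linker histone H1, 18 for H2A, 19 for H2B, 12 for H3 and 13 for H4, and the H2B genes include the pseudogene Hist3h2bb-ps. They were followed in cervical motor neurons (MNs) made from E14 mouse embryonic stem cells, an established line, with 2 libraries from WT cells and 2 from Patz1 KO cells derived from the same line (genotype Patz1 -/-), to ask what the loss of the zinc finger protein PATZ1 did to expression in MNs. All cells passed through embryoid bodies and were then patterned with 1 µM retinoic acid and 0.5 µM smoothened agonist from day 2, and several KO lines had been made, of which the labels do not name the line used. Patz1 itself was at 91.4 and 94.2 CPM (the count divided by edgeR's TMM library size, scaled to 1e6) in WT and at 47.6 and 42.5 CPM in Patz1 KO (log2 fold change -1.04, SE 0.10, adjusted p = 1.09e-07, quasi-likelihood test of edgeR, adjusted by Benjamini-Hochberg). According to the methods of the study, each replicate was a separate differentiation of the cells.

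The titles of the samples name embryonic stem cells, whereas their source and cell type name MNs. The MN genes Mnx1, Isl1, Isl2, Lhx3, Chat, Slc18a3 and Slc5a7 summed to 537 to 576 CPM in WT and 785 to 860 CPM in Patz1 KO, whereas the pluripotency genes Pou5f1, Nanog, Zfp42 and Dppa5a summed to 6.31 to 7.92 CPM in WT and 4.74 to 5.42 CPM in Patz1 KO. Among these, Pou5f1 had 3 to 7 counts per library and Nanog 46 to 75. Total counts lay between 14769104 and 15728158 for the WT libraries and between 17402342 and 23881522 for those of Patz1 KO, and 14269 genes passed the filter on low counts. Replicates differed by more than sampling noise in both groups, with a chi-square per gene of 8.44 in WT and 18.7 in Patz1 KO.

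Replication-dependent histone genes supply the bulk of new histone protein while DNA is being copied, and they lie in clusters as many near-identical copies without introns. Their mRNAs normally carry no poly(A) tail and end in a stem-loop that is bound by the stem-loop binding protein SLBP, so that they are kept by libraries made from total RNA depleted of ribosomal RNA, as these were. In neural tissue their expression is a mark of dividing progenitors, while neurons that have left the cell cycle rely on replacement histones, which are encoded elsewhere, have poly(A) tails and are made throughout the cycle.

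The stem-loop was searched for behind the annotated coding part as 6 paired bases that begin with GG, a loop of 4 bases with at least 3 T, and the matching bases. It was found in 44 of the 68 members, 24 to 61 bases behind the coding part, and in 15 others the annotated transcript ended too soon for the search. The lines that follow show the DNA of GRCm38, the assembly also called mm10, read in the direction of the gene. They cover members of each type, most of which are described with values further on. Capitals mark the 16 bases of stem and loop.
Hist1h1c (chr13:23739507-23739532): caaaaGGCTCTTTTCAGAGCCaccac
Hist1h1t (chr13:23696520-23696545): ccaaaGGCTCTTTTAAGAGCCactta
Hist1h2ad (chr13:23574890-23574915): acaaaGGCTCTTTTCAGAGCCatcca
Hist1h2bf (chr13:23573760-23573785): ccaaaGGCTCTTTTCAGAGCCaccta
Hist1h3e (chr13:23561898-23561923): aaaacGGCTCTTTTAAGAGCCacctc
Hist1h3g (chr13:23535884-23535909): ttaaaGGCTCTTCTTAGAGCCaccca
Hist1h4d (chr13:23581945-23581970): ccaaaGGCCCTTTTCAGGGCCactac
Hist1h4h (chr13:23531453-23531478): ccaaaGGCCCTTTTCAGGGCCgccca
Hist1h4j (chr13:21735432-21735457): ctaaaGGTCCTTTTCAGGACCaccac
Hist2h4 (chr3:96262934-96262959): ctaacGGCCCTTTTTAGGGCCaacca
Hist4h4 (chr6:136803993-136804018): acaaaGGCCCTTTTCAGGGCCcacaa
The 16 bases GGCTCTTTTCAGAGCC were the same in 25 members, which were 3 H1, 10 H2A, 7 H2B and 5 H3 genes. The 11 H4 genes with a stem-loop used 3 other forms, and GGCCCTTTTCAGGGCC stood in 7 of them. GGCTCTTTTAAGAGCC stood in 6 members, which went in both directions in Patz1 KO. Hist1h1t and Hist1h3e rose, Hist1h2bb, Hist1h2bk and Hist1h3c fell, and Hist1h3f did not pass the test.

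Most histone genes that changed were lower in Patz1 KO. Of the 68 members, 60 passed the filter on low counts, and of these 32 fell, 5 rose and 23 did not pass the test at an adjusted p of 0.05. Over all 14269 genes tested, 47.9% were called, 23.8% lower and 24.1% higher, beside 53.3% lower and 8.33% higher among the 60 members. The median log2 fold change was -0.35 over the 60 members and -0.001 over all genes tested. The Patz1 KO libraries lay below both WT libraries for 32 members, above both for 7, and overlapped with WT for 21, while over all genes tested 37.2% lay below, 37% above and 74.2% in either direction. Members share sequence and regulation and are not independent of each other, and the background percentages are given as descriptions with no test.

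Summed over all members, the level was 20634 and 18041 CPM in WT and 12076 and 16979 CPM in Patz1 KO. The Patz1 KO libraries thus lay below both WT libraries, but apart from each other by more than the WT libraries were. The genes for H4 summed to 7710 and 6586 CPM in WT and 3967 and 6516 CPM in Patz1 KO, and those for H2B to 5255 and 4425 CPM in WT and 2813 and 3747 CPM in Patz1 KO. The H1 genes summed to 4005 and 3757 CPM in WT and 2867 and 3287 CPM in Patz1 KO. These 3 types were lower in both Patz1 KO libraries, H4 in the second by little. H3 stood at 2215 and 1951 CPM in WT and 1407 and 1932 CPM in Patz1 KO, again only just below WT in the second library. H2A, at 1449 and 1322 CPM in WT and 1022 and 1498 CPM in Patz1 KO, was lower in replicate 1 and higher in replicate 2. The log2 ratio of the group means was -0.56 for H2B, -0.45 for H4, -0.33 for H1, -0.32 for H3 and -0.14 for H2A, with no test. Without the most abundant member of each type, it was -0.39 for H2B, -0.35 for H4, -0.46 for H1, -0.36 for H3 and -0.02 for H2A.

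**Figure D1:**
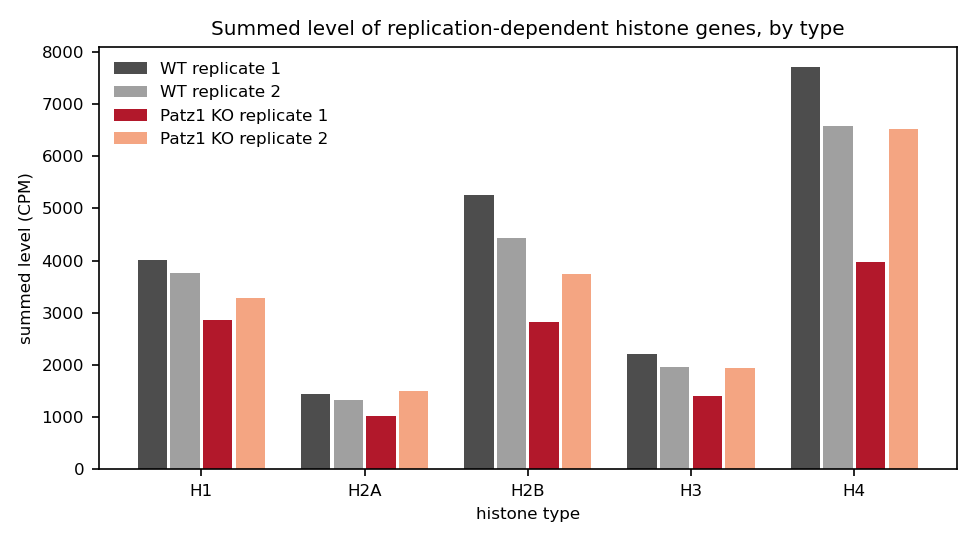
Summed level in CPM of the genes of each histone type in the 4 libraries, with 1 bar per library. H4 and H2B are the most abundant types, Patz1 KO replicate 1 is the lowest library for every type, and for H2A Patz1 KO replicate 2, at 1498 CPM, stands above both WT libraries.

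The 2 Patz1 KO libraries were themselves apart in histone mRNA. Patz1 KO replicate 1 was below replicate 2 for 55 of the 60 members tested, against 47.5% of all genes tested, and it was the lowest of the 4 libraries for 46 of them, against 26.6% of all genes. The median log2 ratio of replicate 2 to replicate 1 was 0.42 over the members and -0.01 over all genes. It was 0.80 for H4, 0.58 for H2A, 0.39 for H3, 0.31 for H2B and 0.17 for H1. The WT libraries differed the other way and by less, with a median of -0.21 for replicate 2 over replicate 1. Other RNAs that are short or lack a poly(A) tail moved the same way between the libraries: the 8 measured had a median log2 ratio of 0.64 between the Patz1 KO replicates and -0.26 between the WT replicates, and their share of all counts was 6.56% and 6.34% for WT against 6.82% and 9.65% for Patz1 KO. Among them, the RNase P RNA Rpph1 was at 28408 and 21523 CPM in WT and 29550 and 45146 CPM in Patz1 KO (log2 fold change 0.58, SE 0.23, adjusted p = 0.042, lost in 7 of 12 alternatives). The RNase MRP RNA Rmrp was at 20262 and 16007 CPM in WT and 19494 and 31140 CPM in Patz1 KO (log2 fold change 0.48, SE 0.22, adjusted p = 0.079). The minor spliceosomal RNA Rnu11 was at 27.9 and 24.6 CPM in WT and 21.4 and 35.3 CPM in Patz1 KO (log2 fold change 0.10, SE 0.17, adjusted p = 0.66). The 36 S phase genes, whose mRNAs are polyadenylated, had a median of 0.01 between the Patz1 KO replicates. For the 11 replacement histones this median was 0.14. Patz1 KO replicate 1 was below replicate 2 for 10 of these 11 genes and the lowest of the 4 libraries for 9. The part that the content of short RNAs has in the histone values was not tested.

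**Figure D2:**
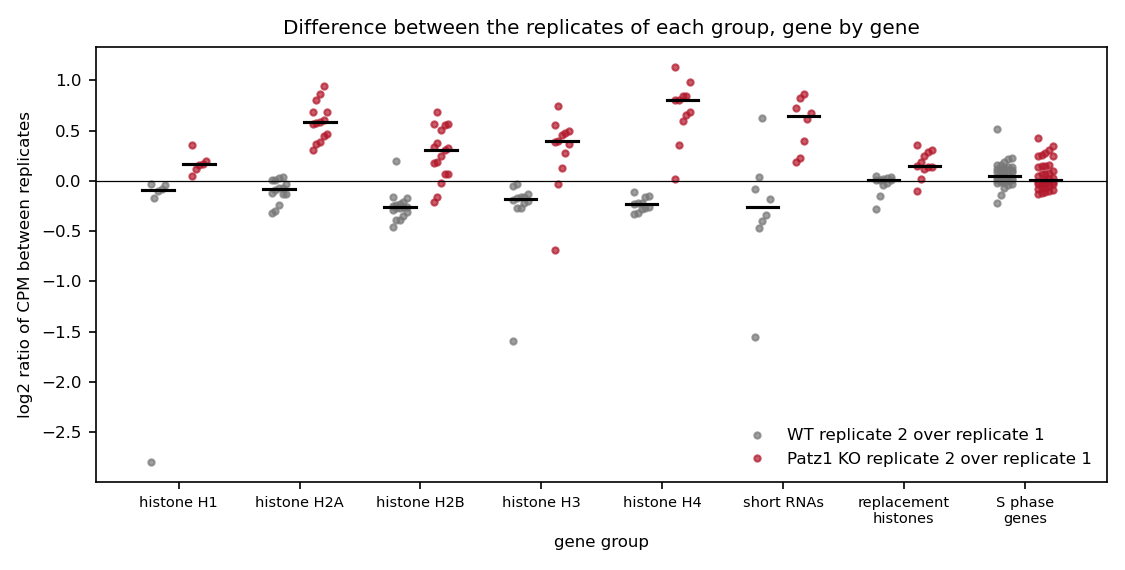
Log2 ratio of CPM of replicate 2 to replicate 1, for WT in grey and Patz1 KO in red, with 1 point per tested gene and a bar at the median of each group of genes. The medians of core histone genes and short RNAs lie at 0.31 to 0.80 in Patz1 KO, whereas the medians of H1, replacement histones and S phase genes lie at 0.17, 0.14 and 0.01.

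The count of calls and the median log2 fold change of the members both changed with the libraries kept. The median was -0.14 without Patz1 KO replicate 1 and -0.63 without Patz1 KO replicate 2. It was -0.26 without WT replicate 1 and -0.45 without WT replicate 2. DESeq2's Wald test called 19 members lower and 4 higher, given here without the share over all genes in that fit. Each of the 37 members called kept its sign in every alternative tried, and 15 of the 32 falls passed the test in all alternatives other than a minimum log2 fold change of 1: Hist1h1a, Hist1h1b, Hist1h2ab, Hist1h2bf, Hist1h2bh, Hist1h2bm, Hist1h2bn, Hist1h3b, Hist1h3d, Hist1h3g, Hist1h4b, Hist1h4d, Hist2h2bb, Hist2h4 and Hist3h2a. The rises of Hist1h1t and Hist1h3e passed in all alternatives in which they could be tested. Where the groups do not overlap, leaving out a library keeps their order, so a kept sign adds little to the call. In these bulk libraries, fewer dividing cells and less histone mRNA per cell cannot be told apart.

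The linker histone genes, which encode the H1 subtypes that bind the DNA between nucleosomes, did not move together. Hist1h1b, for subtype H1.5, was at 868 and 822 CPM in WT and at 407 and 458 CPM in Patz1 KO (log2 fold change -0.97, SE 0.11, adjusted p = 9.16e-07). Hist1h1a, for H1.1, was at 935 and 828 CPM in WT and at 526 and 570 CPM in Patz1 KO (log2 fold change -0.69, SE 0.11, adjusted p = 5.2e-05). For both genes the groups were well apart, and neither shares a stretch of 50 bases with another annotated gene. Hist1h1d, for H1.3, was at 679 and 667 CPM in WT and at 514 and 592 CPM in Patz1 KO, a smaller fall (log2 fold change -0.28, SE 0.11, adjusted p = 0.034) that was lost without either WT library (adjusted p = 0.24 and 0.225) or without Patz1 KO replicate 1 (adjusted p = 0.067). Hist1h1e, for H1.4, was at 1033 and 963 CPM in WT and at 921 and 1031 CPM in Patz1 KO, with overlapping groups (log2 fold change -0.03, SE 0.11, adjusted p = 0.83). Its annotated exons overlap those of Hist1h2be on the same strand, so reads of the 2 genes cannot be fully told apart. Hist1h1c, for H1.2, which is also made outside S phase, was at 489 and 476 CPM in WT and at 495 and 632 CPM in Patz1 KO (log2 fold change 0.22, SE 0.11, adjusted p = 0.12), and it went from 0.04 without Patz1 KO replicate 2 to 0.39 without replicate 1, where it was called higher.

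The make-up of the H1 pool accordingly differed between the groups. Per kilobase of coding sequence, Hist1h1a and Hist1h1b supplied 23.9% and 21.2% of H1 counts in WT replicate 1 and 22.6% and 21.4% in WT replicate 2. In Patz1 KO they supplied 18.7% and 13.8% in replicate 1 and 17.7% and 13.6% in replicate 2. Hist1h1c supplied 12.5% and 13.0% in WT and 17.7% and 19.7% in Patz1 KO. Hist1h1e supplied 25.7% and 25.5% in WT and 31.9% and 31.1% in Patz1 KO. The shares of each of these 4 genes did not overlap between the groups, and replicates were closer to each other than the groups were. Hist1h1d supplied 16.7% and 17.5% in WT and 17.7% in each Patz1 KO library, a gap smaller than the difference between the WT replicates. For levels, the groups did not overlap for 74.2% of all genes tested. These shares sum to a fixed total, so a fall in some members raises the others. Counts were divided by coding length alone, while annotated exons run from 741 bases for Hist1h1a to 7425 for Hist1h1d. Reads outside the coding part can therefore raise the level per kilobase of members with long annotated transcripts, here and below.

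Hist1h1t, which encodes the linker histone of spermatocytes, was nearly silent in WT, with 13 and 2 counts, whereas Patz1 KO libraries held 113 and 81. This was 0.87 and 0.13 CPM against 4.66 and 4.83 CPM, a log2 fold change of 3.26 (SE 0.43, adjusted p = 6.53e-06), which went from 2.44 without WT replicate 2 to 5.16 without WT replicate 1. Even so, it stayed below 0.2% of H1 counts per kilobase in every library. Of 5 testis genes, Prm1, Prm2, Tnp1 and Acrv1 had 0 counts in all 4 libraries, where 3 counts per library was taken as the limit of detection, and Ddx4 was at 3.62 and 3.46 CPM in WT and 4.16 and 4.53 CPM in Patz1 KO (log2 fold change 0.29, SE 0.23, adjusted p = 0.32).

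**Figure D3:**
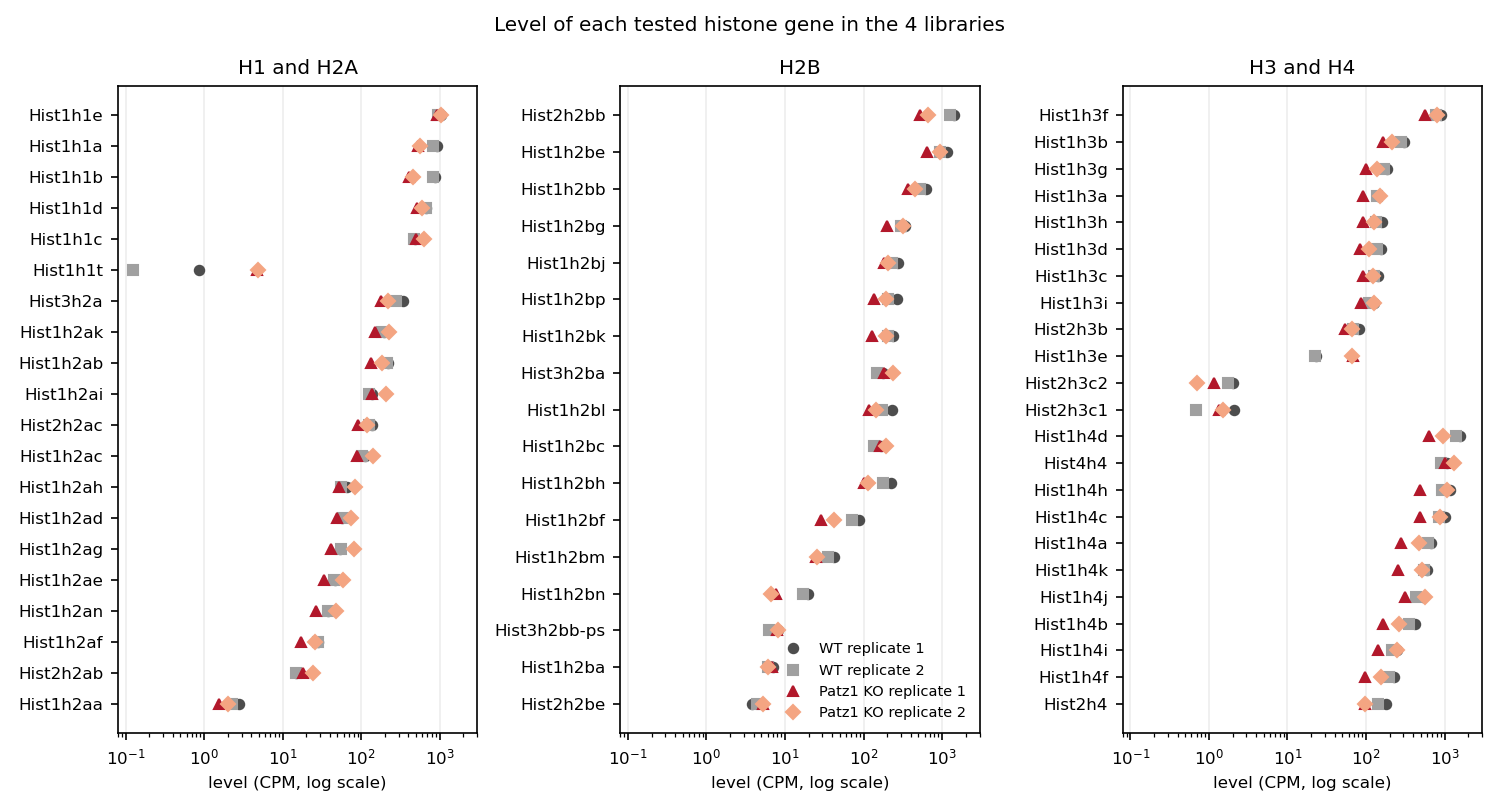
Level in CPM, on a log axis, of each of the 60 tested members in the 4 libraries, grouped by histone type and ordered by mean level. Patz1 KO replicate 1 is the lowest library for 12 of 14 H2A and 10 of 11 H4 genes, and replicate 2 lies above both WT libraries for 9 H2A genes and below both for 6 H4 genes. For Hist2h2bb, Hist1h1b and Hist1h3e both Patz1 KO libraries stand apart from WT.

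H2A genes, whose product pairs with H2B in the nucleosome, had no common direction. Of 18 genes 14 could be tested, of which 4 fell, 2 rose and 8 did not pass, and the median log2 fold change was -0.01. The share called was 42.9%, beside 47.9% of all genes tested. All 18 overlap, in GENCODE, a gene on the opposite strand that is not among the genes counted. The direction turned on the Patz1 KO library: the median over H2A genes was 0.36 without replicate 1 and -0.40 without replicate 2. Hist3h2a, the most abundant, lies outside the main cluster, on chromosome 11 of GRCm38 from 58954685 to 58956830, and was at 339 and 276 CPM in WT and at 179 and 221 CPM in Patz1 KO (log2 fold change -0.62, SE 0.11, adjusted p = 0.000197). Its exons overlap those of Trim17, which had 4 to 20 counts. Hist1h2ab was at 222 and 211 CPM in WT and at 135 and 187 CPM in Patz1 KO (log2 fold change -0.43, SE 0.12, adjusted p = 0.0054). Hist3h2a and Hist1h2ab were below WT in both Patz1 KO libraries. Hist1h2ak, at 197 and 185 CPM in WT and 149 and 224 CPM in Patz1 KO, straddled WT (log2 fold change -0.03, SE 0.13, adjusted p = 0.85).

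The rises among H2A genes rested on Patz1 KO replicate 2. Hist1h2ai was at 137 and 125 CPM in WT and at 138 and 205 CPM in Patz1 KO (log2 fold change 0.39, SE 0.13, adjusted p = 0.020). Without Patz1 KO replicate 2 its log2 fold change was 0.08, and without WT replicate 2 it was 0.33. DESeq2's Wald test did not call Hist1h2ai (adjusted p = 0.30). Hist2h2ab was at 14.8 and 14.9 CPM in WT and at 18.0 and 24.4 CPM in Patz1 KO (log2 fold change 0.50, SE 0.15, adjusted p = 0.0091), and at 0.28 (adjusted p = 0.072) without Patz1 KO replicate 2. The testis form Hist1h2aa was low, at 2.82 and 2.26 CPM in WT and 1.57 and 2.03 CPM in Patz1 KO (log2 fold change -0.52, SE 0.31, adjusted p = 0.18).

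H2B genes fell in 11 of the 17 cases tested, 1 rose and 5 did not pass, with a median log2 fold change of -0.48. That was 64.7% lower and 5.88% higher, beside 23.8% and 24.1% of all genes tested. Hist2h2bb, the most abundant H2B gene, was counted 20856 and 19784 times in the WT libraries and 12741 and 11137 times in those of Patz1 KO. This was 1399 and 1243 CPM against 525 and 664 CPM, a log2 fold change of -1.15 (SE 0.13, adjusted p = 8.68e-07), and it shares no stretch of 50 bases with a gene outside its own locus. There it overlaps Gm42743 on the same strand and Gm20628 on the opposite strand, neither of which is among the genes counted. Its share of the H2B level per kilobase of coding sequence was 27.5% in WT and 18.2% in Patz1 KO. Hist1h2be, the next most abundant, was at 1145 and 953 CPM in WT and 635 and 940 CPM in Patz1 KO (log2 fold change -0.41, SE 0.15, adjusted p = 0.030). DESeq2's Wald test did not call Hist1h2be (adjusted p = 0.34). Its log2 fold change was -0.28 without WT replicate 1 and -0.16 without Patz1 KO replicate 1. Hist1h2bb was at 626 and 521 CPM in WT and 366 and 454 CPM in Patz1 KO (log2 fold change -0.49, SE 0.12, adjusted p = 0.0026, and 0.105 without WT replicate 1). Hist1h2bg was at 335 and 300 CPM in WT and 197 and 316 CPM in Patz1 KO, with overlapping groups (log2 fold change -0.31, SE 0.15, adjusted p = 0.092). It was called lower in 4 of 12 alternatives and went from -0.68 without Patz1 KO replicate 2 to -0.01 without replicate 1.

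The 3 largest falls of all members with a mean of at least 50 counts were in H2B genes. Next to Hist2h2bb they were Hist1h2bn, at 19.7 and 16.8 CPM in WT and 7.71 and 6.67 CPM in Patz1 KO (log2 fold change -1.33, SE 0.16, adjusted p = 1.78e-06), and Hist1h2bf, at 86.5 and 70.8 CPM in WT and 28.6 and 41.9 CPM in Patz1 KO (log2 fold change -1.17, SE 0.14, adjusted p = 2.57e-06). For all 3 the Patz1 KO libraries were well below both WT libraries. Of the 50-base stretches of the transcript, 86.4% for Hist1h2bn and 65.8% for Hist1h2bf also occur in other genes, unlike for Hist2h2bb. The 1 H2B gene that rose was Hist3h2ba, at 179 and 149 CPM in WT and 181 and 235 CPM in Patz1 KO (log2 fold change 0.34, SE 0.11, adjusted p = 0.021), and this was lost without WT replicate 2 or Patz1 KO replicate 2. It was named after its value was seen. The testis form Hist1h2ba, at 7.11 and 6.03 CPM in WT and 6.84 and 6.14 CPM in Patz1 KO, had a log2 fold change of -0.01 (SE 0.20, adjusted p = 0.97). Hist2h2be, known as the H2B form of olfactory neurons, was at 3.82 and 4.40 CPM in WT and 5.32 and 5.24 CPM in Patz1 KO (log2 fold change 0.36, SE 0.22, adjusted p = 0.19).

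H3 genes, which encode the canonical H3 forms deposited with replication, fell in 7 of 12 cases and rose in 1, with a median log2 fold change of -0.32. That was 58.3% lower and 8.33% higher, beside 23.8% and 24.1% of all genes tested. Hist1h3f supplied 39.9% of the H3 level per kilobase of coding sequence in WT and 41.4% in Patz1 KO. It was at 889 and 772 CPM in WT and 572 and 808 CPM in Patz1 KO, with overlapping groups (log2 fold change -0.27, SE 0.14, adjusted p = 0.12). It was at -0.04 without Patz1 KO replicate 1 and at -0.53 without replicate 2 (adjusted p = 1.16e-07), and it was also called lower without the filter on low counts (adjusted p = 0.040). Hist1h3b was at 308 and 276 CPM in WT and 165 and 212 CPM in Patz1 KO (log2 fold change -0.63, SE 0.11, adjusted p = 0.000127), and Hist1h3g at 184 and 168 CPM in WT and 100 and 137 CPM in Patz1 KO (log2 fold change -0.57, SE 0.12, adjusted p = 0.000582). Both fell below WT in each Patz1 KO library. Hist1h3a was at 142 and 137 CPM in WT and 90.4 and 152 CPM in Patz1 KO (log2 fold change -0.21, SE 0.15, adjusted p = 0.26).

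Hist1h3e was the exception among H3 genes. WT libraries held 344 and 359 counts of it and Patz1 KO libraries 1644 and 1116, which made 23.1 and 22.6 CPM against 67.8 and 66.5 CPM (log2 fold change 1.56, SE 0.10, adjusted p = 1.09e-09). Within each group the 2 libraries differed little, and the log2 fold change went only from 1.54 to 1.58 when a library was left out. The gene lies on the minus strand of chromosome 13 from 23561534 to 23562369 in the main cluster, and 73.4% of the 50-base stretches of its transcript also occur in other genes, mainly in Hist1h3f. Its annotated transcript runs 369 bases past the stem-loop shown above. Even in Patz1 KO it stood well below Hist1h3f, at 165 CPM per kilobase of coding sequence against 1691.

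**Figure D4:**
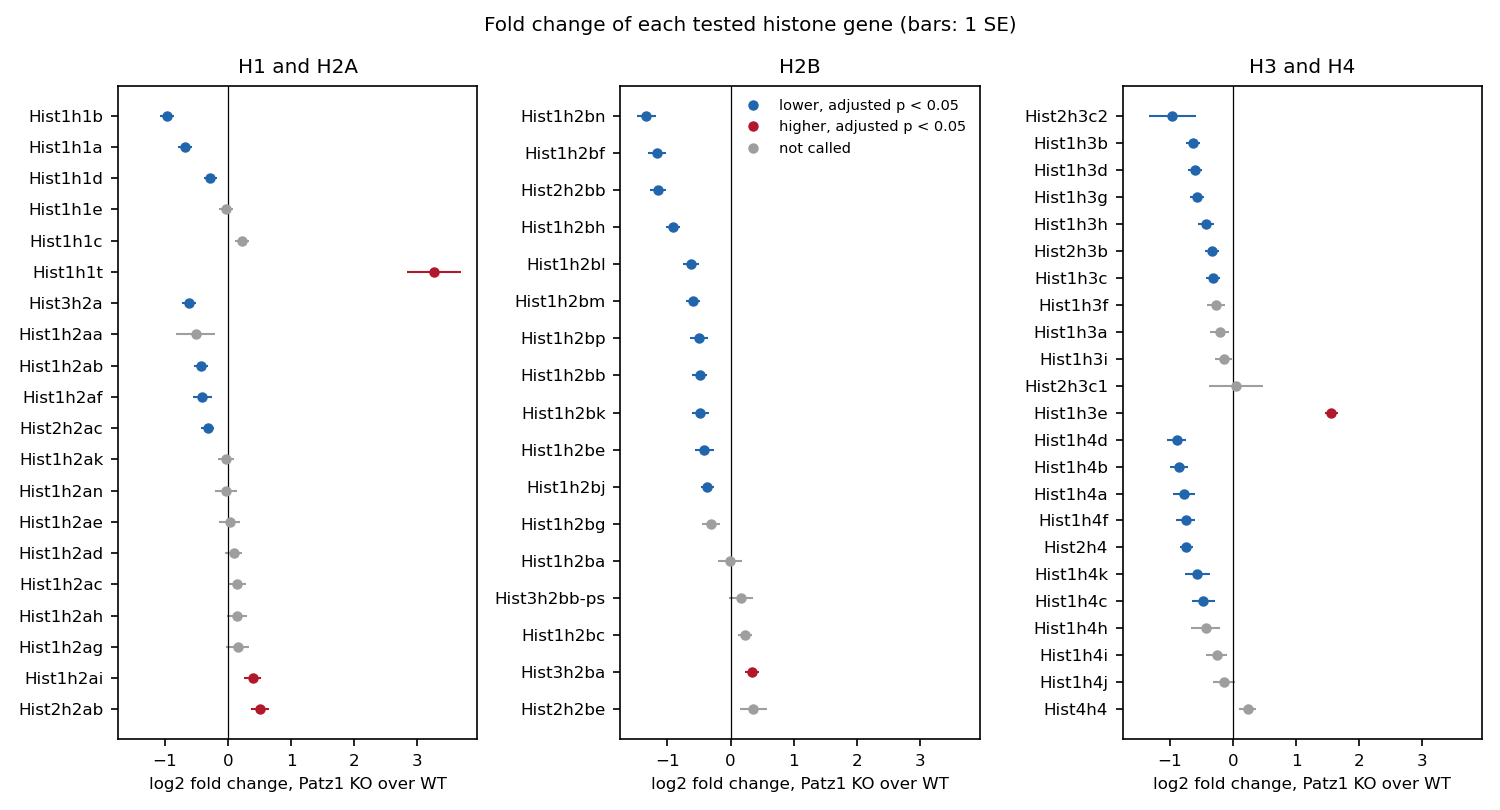
Log2 fold change of Patz1 KO over WT for each of the 60 tested members, with bars of 1 SE, by histone type. The 32 genes that fell are in blue, the 5 that rose in red and the 23 that did not pass in grey, and Hist1h1t (3.26) and Hist1h3e (1.56) lie far to the right of all others.

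H4 genes all encode the same protein in this annotation, and 7 of the 11 tested were lower in Patz1 KO and 0 higher, with a median log2 fold change of -0.56. The share lower was 63.6%, beside 23.8% of all genes tested. Hist1h4d, the most abundant member in WT per kilobase of coding sequence, was at 1579 and 1410 CPM in WT and 640 and 970 CPM in Patz1 KO (log2 fold change -0.89, SE 0.15, adjusted p = 0.000115). Both Patz1 KO libraries were well below WT. Hist1h4h was at 1159 and 926 CPM in WT and 483 and 1061 CPM in Patz1 KO (log2 fold change -0.43, SE 0.22, adjusted p = 0.12), and without Patz1 KO replicate 1 it was at 0.03 and without replicate 2 at -1.10. Hist1h4c was at 1018 and 849 CPM in WT and 482 and 867 CPM in Patz1 KO (log2 fold change -0.47, SE 0.18, adjusted p = 0.040). DESeq2's Wald test did not call Hist1h4c (adjusted p = 0.42). Its log2 fold change was -0.33 without WT replicate 1 and -0.11 without Patz1 KO replicate 1. For these 2 genes the second Patz1 KO library lay within the range of WT. Hist4h4, a lone gene on chromosome 6 from 136801553 to 136804415, was at 1082 and 897 CPM in WT and 1017 and 1305 CPM in Patz1 KO (log2 fold change 0.23, SE 0.13, adjusted p = 0.16), and it went from 0.05 without Patz1 KO replicate 2 to 0.40 without replicate 1, where it was called higher. It was the only H4 gene with a log2 fold change above 0.

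Many members share sequence with near-identical copies, so the split of reads among them is uncertain. In the 60 members tested, the median share of 50-base stretches of a transcript that also occur in an annotated gene at another locus was 41.8%, and over the coding part alone it was 72.3%. The 5 members that share none are Hist1h1a, Hist1h1b, Hist1h1t, Hist2h2bb and Hist2h2be, of which 3 fell and 1 rose, with a median log2 fold change of -0.69. The 55 members that share some had a median of -0.33, with 29 lower and 4 higher. Translated from the annotation, the 13 H4 genes encode 1 protein, the 12 H3 genes 3, the 18 H2A genes 9, the 18 coding H2B genes 11 and the 6 H1 genes 6.

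The 8 members that did not pass the filter lay among those with much shared sequence. Hist1h2ao, Hist1h2ap, Hist1h2bq, Hist1h2br, Hist1h4m, Hist2h2aa1 and Hist2h2aa2 had 0 counts in all 4 libraries, and Hist1h4n had 0 to 2. Their transcripts share 85.6% to 100% of 50-base stretches with other genes, and their coding parts share 100%, as did those of 4 tested members (Hist1h2ad, Hist1h2ag, Hist2h3c1 and Hist2h3c2). Where every read of a gene also fits another place in the genome, 0 counts can mean that such reads were left out and not that the gene was silent. How the counting treated reads that fit several places is not given in the sources used here.

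The H2A and H2B genes lie in many cases head to head, less than 1000 bases apart, and share the stretch between their starts. Of 13 such pairs, with 172 to 305 bases between them, both genes could be tested in 11. The pairs were examined after the values had been seen, and no test was made on them. In 7 of the 11 pairs the H2A gene had the higher log2 fold change, with a median of 0.02 over the H2A genes and -0.37 over their H2B partners. Hist1h2bn fell (-1.33) while its neighbour Hist1h2ak, 295 bases away, was at -0.03. Hist1h2bf fell (-1.17) while Hist1h2ad, 184 bases away, was at 0.09 (SE 0.14, adjusted p = 0.63), and the 2 genes carry the same stem-loop. Hist1h2bl fell (log2 fold change -0.63, SE 0.13, adjusted p = 0.00059) while Hist1h2ai rose (0.39). In these 3 pairs the H2B gene passed the test as lower and the H2A gene did not. The genes of these pairs share from 52.3% (Hist1h2ak) to 90.1% (Hist1h2ai) of their 50-base stretches with other genes. The split of reads among copies is therefore uncertain here as well. The H2A values depended on the library kept: without Patz1 KO replicate 2, Hist1h2ak (-0.35) and Hist1h2ad (-0.23) were called lower as well, and without replicate 1 both were called higher (0.23 and 0.36). The order was the other way for Hist2h2ac (-0.32) beside Hist2h2be (0.36), for Hist3h2a (-0.62) beside the pseudogene Hist3h2bb-ps (0.16) and for Hist1h2aa (-0.52) beside Hist1h2ba (-0.01), pairs in which the second gene is low, and by little for Hist1h2ac (0.14) beside Hist1h2bc (0.23).

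**Figure D5:**
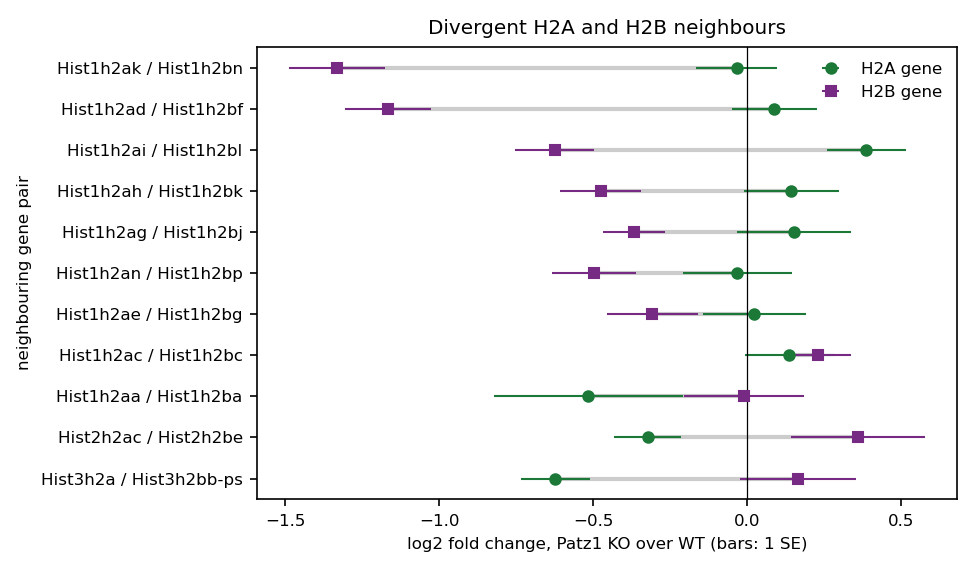
Log2 fold change of Patz1 KO over WT of the H2A gene (green circles) and the H2B gene (violet squares) of the 11 head-to-head pairs in which both were tested, with bars of 1 SE. The gap is widest for Hist1h2ak and Hist1h2bn, at -0.03 and -1.33.

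Promoters from RefSeq (GRCm38.p6), 250 bases before to 50 after the start, were matched for 62 members, and motifs were searched on both strands. The octamer ATTTGCAT, to which POU2F1 binds, stood in 7 of 18 H2A and 7 of 16 H2B promoters and in 0 of the 28 others, against 1.74% of 32851 promoters. Promoters of head-to-head neighbours overlap, so a site between them can be counted for both genes. The octamers of Hist1h2aa and Hist1h2ba, of Hist1h2ae and Hist1h2bg, and of Hist1h2ah and Hist1h2bk are such shared sites. The CCAAT box stood in all 50 promoters of H1, H2A, H2B and H3 genes that were matched and in 3 of 12 for H4 (37.4% of all promoters), and TATAAA in 35 of 62 (13.6%). Members with and without the octamer did not separate by fold change in a common direction. The median log2 fold change was -0.32 with and 0.09 without it among H2A genes, and -0.48 with and -0.63 without it among H2B genes, with 7 tested genes in each class. None of the 3 motifs is contained in another, and a match describes letters only.

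By position, the 2 parts of the main cluster on chromosome 13 gave like values, with a median log2 fold change of -0.37 over the 17 tested members at lower coordinates and -0.41 over the 31 at higher coordinates. The cluster on chromosome 3 had a median of -0.33 over 8, with 5 lower and 1 higher, and the 3 members on chromosome 11 went from -0.62 to 0.34.

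Replacement histones, which are made outside S phase, changed in both directions. Of the 11 measured, 5 fell and 2 rose, with a median log2 fold change of -0.21. That was 45.5% lower and 18.2% higher, beside 23.8% and 24.1% of all genes tested. H2afz, for H2A.Z, was at 929 and 902 CPM in WT and 470 and 517 CPM in Patz1 KO (log2 fold change -0.89, SE 0.11, adjusted p = 2.16e-06). H2afj, for H2A.J, rose from 15.4 and 12.8 CPM in WT to 34.1 and 43.6 CPM in Patz1 KO (log2 fold change 1.46, SE 0.14, adjusted p = 1.61e-07). H1fx, for H1.X, rose from 9.39 and 9.68 CPM to 21.9 and 20.4 CPM (log2 fold change 1.15, SE 0.14, adjusted p = 2.12e-06). All 3 separated the groups by more than the replicates. H3f3a and H3f3b, which both encode H3.3, had log2 fold changes of -0.33 (SE 0.11, adjusted p = 0.022) and -0.21 (SE 0.11, adjusted p = 0.13), and that of H3f3a was lost without WT replicate 1 (adjusted p = 0.15), WT replicate 2 (adjusted p = 0.205) or Patz1 KO replicate 1 (adjusted p = 0.054). H2afx (0.09, SE 0.10, adjusted p = 0.49) and H1f0 (0.03, SE 0.09, adjusted p = 0.82) did not pass.

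Genes for the synthesis and processing of histone mRNA fell in 11 of 26 cases and rose in 4, with a median log2 fold change of -0.18. In all, 57.7% of them were called, near the 47.9% of all genes tested. The shares were 42.3% lower and 15.4% higher, beside 23.8% and 24.1% of all genes. Slbp, whose product binds the stem-loop, was at 114 and 122 CPM in WT and 83 and 89.6 CPM in Patz1 KO (log2 fold change -0.45, SE 0.09, adjusted p = 0.00043). Cyclin E and its kinase act on NPAT at the start of S phase. Ccne1, the more abundant of the 2 cyclin E genes, was at 53.4 and 47.1 CPM in WT and 58.0 and 55.4 CPM in Patz1 KO (log2 fold change 0.17, SE 0.10, adjusted p = 0.15). Ccne2, the other, was at 23.8 and 21.4 CPM in WT and 9.03 and 10.5 CPM in Patz1 KO (log2 fold change -1.21, SE 0.14, adjusted p = 1.49e-06), and Cdk2, for the kinase, was at 47.0 and 51.8 CPM in WT and 25.6 and 26.8 CPM in Patz1 KO (log2 fold change -0.92, SE 0.10, adjusted p = 1.08e-06). Npat itself, the activator shared by histone genes, had a log2 fold change of -0.18 (SE 0.09, adjusted p = 0.12), and the H4 gene factor Hinfp of -0.03 (SE 0.14, adjusted p = 0.87). Of the 2 proteins particular to the U7 particle that cuts histone mRNA, Lsm10 was at -0.003 (SE 0.15, adjusted p = 0.99), and Lsm11 at 0.25 (SE 0.10, adjusted p = 0.049), a call lost in 7 of 12 alternatives. Cstf2, a cleavage factor, rose from 104 and 99.8 CPM to 171 and 165 CPM (log2 fold change 0.72, SE 0.09, adjusted p = 2.13e-06).

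Histone chaperones, which carry new histones to DNA, fell in 15 of 23 cases and rose in 2, with a median log2 fold change of -0.29. The shares were 65.2% lower and 8.70% higher, beside 23.8% and 24.1% of all genes tested. Chaf1a and Chaf1b, the large subunits of the factor that places H3 and H4 behind the fork, had log2 fold changes of -0.98 (SE 0.10, adjusted p = 3.05e-07) and -0.95 (SE 0.10, adjusted p = 6.28e-07), and Mms22l of -0.89 (SE 0.11, adjusted p = 2.44e-06). Each was lower in both Patz1 KO libraries, with Chaf1a at 62.9 and 69.0 CPM in WT and 34.1 and 32.7 CPM in Patz1 KO.

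The S phase genes fell in 34 of 36 cases and rose in 0 (edgeR's test), with a median log2 fold change of -0.85. The share lower was 94.4%, beside 23.8% of all genes tested. Tyms, for thymidylate synthase, was at 57.6 and 62.6 CPM in WT and 17.8 and 17.1 CPM in Patz1 KO (log2 fold change -1.78, SE 0.10, adjusted p = 3.66e-10). Atad2 had a log2 fold change of -1.33 (SE 0.09, adjusted p = 3.39e-09) and the helicase subunit Mcm4 of -1.27 (SE 0.09, adjusted p = 2.24e-09). The summed level of the list was 3045 and 3167 CPM in WT and 1773 and 1803 CPM in Patz1 KO, so that for these polyadenylated mRNAs, unlike for the histone genes, the Patz1 KO libraries lay close together. The difference between the 2 lists was not tested.

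Markers of several cell types moved with the genotype as well. Of the 7 MN genes 6 were higher in Patz1 KO, while over all genes tested 24.1% were higher and 23.8% lower. Of 7 neural progenitor genes 3 were lower and 1 higher, and they summed to 1980 to 2029 CPM in WT and 1531 to 1580 CPM in Patz1 KO. The 4 mesenchyme genes were all lower, at 128 to 145 CPM summed in WT and 12.0 to 15.0 CPM in Patz1 KO, and 4 of 5 endoderm genes were lower, at 29.5 to 33.9 CPM summed in WT and 3.05 to 5.12 CPM in Patz1 KO. None of these MN, progenitor, mesenchyme and endoderm markers was at 0 in any library. The part of these cells in the histone values was not tested.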

How the data were processed

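RNA was measured in 4 libraries of MNs differentiated from mESCs, 2 WT and 2 Patz1 KO, made from total RNA with a stranded kit after ribosomal RNA depletion. The deposited files hold raw read counts per gene symbol. The submitters' processing notes name TopHat2 2.1.1, Bowtie2 2.3.1, featureCounts 1.6.2 and the mm10 build. The gene annotation, the strand setting and the treatment of reads that fit several places are not given in the sources used here, so reads of overlapping and antisense genes may not be separated.

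Counts were analysed in R 4.3.3 with edgeR 4.0.16 over all genes (filterByExpr with a minimum count of 10, TMM scaling, quasi-likelihood test, Benjamini-Hochberg adjustment, call at an adjusted p of 0.05, group as the only term). SE was the log2 fold change divided by the root of F. With 2 libraries a group, an exact permutation test could not reach that threshold. The test was tested on simulated data: 180 of 200 changed genes were recovered with 7 false calls among 14269 genes. In the libraries themselves 47.9% of genes were called, and histone genes moved together between the Patz1 KO replicates. The rate of false calls among the histone genes was not tested. The share of changes of their size that the test recovers was not tested either. A count of 0 was read against a floor of 3 counts per library, which covers counting error only. Totals of 14769104 to 23881522 counts set the depth. Alternatives were DESeq2 1.42.0, other scalings and filters, a replicate block, a minimum change of 1 on the log2 scale and dropping libraries in turn.

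Transcript sequences came from GENCODE M21 (GRCm38) and promoters from RefSeq. The members and lists were chosen with earlier results of these data known. Genes given with values were all H1 genes, the 4 most abundant of each core type, the 4 largest rises and falls with a mean of at least 50 counts, testis and olfactory forms, the 3 smallest p of each other list and fixed regulators. The grouping into head-to-head pairs, the comparison of replicates and the order of libraries were added after the values were seen.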

Additional observations from a re-analysis of the deposited data

How the results depend on the processing

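All 37 histone genes called kept their sign under every alternative, which adds little to the call where the groups do not overlap. Against 37 calls (32 lower, 5 higher), leaving out a library gave 26 to 47 calls, 20 to 45 lower and 2 to 16 higher, and the median log2 fold change of the members went from -0.63 to -0.14. DESeq2's Wald test called 23, 19 of them lower, and without the filter on low counts 8 were higher. The shares over all genes in these 2 fits are not given here. A minimum log2 fold change of 1 in edgeR's glmTreat left 2 calls, 2 higher and 0 lower, against 718 over all genes, 1 replacement histone, 0 processing genes, 0 chaperones and 4 S phase genes. The 5 members that share no stretch had a median of -0.69. Leaving out a library gave 4 to 8 replacement histones and 11 to 19 chaperones called, and medians of -0.23 to -0.14 for processing genes and -0.90 to -0.78 for S phase genes. The log2 ratios of summed counts went from -0.44 to 0.11 for H2A, -0.57 to -0.11 for H3 and -0.85 to -0.13 for H4, and that of H1 without Hist1h1e was -0.46.

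Of the 23 members not called, 16 changed sign when a library was left out. The named genes that did so had ranges of log2 fold changes as follows: Hist1h1e from -0.11 to 0.047, Hist1h2ak from -0.35 to 0.23, Hist1h3a from -0.62 to 0.12, Hist1h4h from -1.10 to 0.025, Hist1h2ba from -0.12 to 0.11, Rnu11 from -0.29 to 0.43, Lsm10 from -0.026 to 0.024, Hinfp from -0.10 to 0.047, H2afx from -0.057 to 0.22 and H1f0 from -0.040 to 0.098. Hist1h2ba was at 0.012 without the filter, Lsm10 at 0.0055 with TMM without the 20 most counted genes, 0.019 without the filter and 0.0070 in DESeq2, and H1f0 at -0.0038 with total count scaling. The causes were not tested.

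The replicate numbers are shared between the groups, and the labels do not tell whether libraries of the same number were made together. Differences between replicates were hardly correlated between the groups (Pearson's r = 0.05 over 14269 genes, which are not independent). Such a correlation cannot decide whether the libraries were paired. With the replicate block, 42 members were called, 36 lower and 6 higher, with a median of -0.35, and 7363 over all genes. It kept all 37 calls and added Hist1h2bc as higher and Hist1h2bg, Hist1h3a, Hist1h4h and Hist1h4i as lower.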
